A study of Caenorhabditis elegans with 4 samples.

Results

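The *math* and *bath* genes of *C. elegans* were compared between wild-type animals of the Bristol strain N2 that ate *E. coli* OP50, the usual laboratory food, and animals that ate *L. paracasei* subsp. *paracasei* 2004, a lactic acid bacterium. Members were chosen by symbol alone: every gene whose symbol in the WBcel235 annotation begins with math- or bath- was taken after the counts of all its transcripts had been summed. This gave 73 members of 46745 genes, 37 *math* and 36 *bath*. Total RNA of whole animals was sequenced in 4 samples, 2 for each food, and feeding lasted 3 days from Day 1 of adulthood. No sample carried a mutation or a transgene, and each sample pooled many animals. The domains of the encoded proteins were not checked here.

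The MATH domain (meprin and TRAF homology) is a protein fold that binds peptides of other proteins. BATH proteins join it to a BTB domain, which docks on the cullin CUL-3, so that a BATH protein can act as the substrate adaptor of a CUL-3 ubiquitin ligase: the MATH side holds the target and the BTB side brings it to the ligase. Nematodes of the genus *Caenorhabditis* carry far more of these genes than most animals, many of them in clusters, and most have no assigned substrate. The exceptions with a known role include *math-33*, the homolog of the deubiquitinase USP7, which is known to remove ubiquitin from the FoxO factor DAF-16. MEL-26, a MATH-BTB adaptor that brings the katanin subunit MEI-1 to CUL-3 in the embryo, does not bear the symbol of either family and was looked at beside them.

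Both families lay mainly on chromosome II, with 35 of 37 *math* and 26 of 36 *bath* genes. The median coding length was 925.5 bp for *bath* and 1149 bp for *math*. The *math* lengths ran from 315 to 3414 bp, whereas *bath* lengths ran from 726 to 2118 bp. A single transcript was listed for 31 *bath* and 28 *math* genes, so for most members the sum over transcripts was the transcript itself.

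The deposited counts summed to between 44548901 and 50504029 per sample, and 3 counts, taken as the floor of detection, were worth at most 0.0673 CPM (counts scaled by the total of each sample). Genes that reached 0.5 CPM in 2 or more samples, 12505 in all, entered the quasi-likelihood test of edgeR. A gene was called higher or lower on strain 2004 where its p, adjusted after Benjamini and Hochberg, was under 0.1 and its change exceeded 2-fold. Over all tested genes, 7.55% were called higher and 14.8% lower, and 49.1% passed the adjusted p-value at any fold. The median log2 fold change over all tested genes was -0.03. Whether samples came from separate cultures is not stated, so the p-values measure the spread between these samples, which may be technical. In whole-animal RNA, fewer cells of a type and less RNA per cell cannot be told apart. OP50 replicate 2 was above OP50 replicate 1 in 27 of 31 tested *bath* and 15 of 16 tested *math* genes (72.9% of all tested genes), and 2004 replicate 2 was below 2004 replicate 1 in 23 *bath* and 14 *math* genes (67.5% of all).

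Called members of both families were higher on strain 2004. Of the 31 tested *bath* genes, 6 were called higher and 0 lower, a share of 19.4% higher beside 7.55% of all tested genes. Of the 16 tested *math* genes, 3 were called higher and 0 lower, a share of 18.8%. Of these 3, *math-34* passed the filter on low counts through its 2004 samples only, so each share of called members that includes it is raised by that filter. The family medians stayed near 0. The median log2 fold change was 0.18 for *bath* and -0.07 for *math*, with 20 of 31 *bath* and 7 of 16 *math* genes above 0. With each sample left out in turn, the *math* median changed sign (-0.42 without 2004 replicate 1 to 0.29 without OP50 replicate 2), and the *bath* median ran from 0.037 to 0.29 without the same samples. At an unadjusted p under 0.05, edgeR gave 9 *bath* and 3 *math* genes as higher, beside 24.0% of all tested genes, and 3 *bath* and 0 *math* genes as lower, beside 25.4% of all. None of the 3 lower genes reached 2-fold. DESeq2 also called 0 *bath* and 0 *math* genes lower. limma-voom called 0 *bath* genes and 1 *math* gene lower, *math-22*, which had a log2 fold change of -1.20 and an adjusted p of 0.134 in edgeR. Leaving out OP50 replicate 2 brought the count of higher *math* genes to 5, and leaving out OP50 replicate 1 brought that of lower *math* genes to 2. Both 2004 samples exceeded both OP50 samples in 14 *bath* and 5 *math* genes, beside 37.5% of all tested genes, and lay below both in 7 *bath* genes and 1 *math* gene, beside 33.7% of all. The remaining 10 genes of each family overlapped between the foods. When the fold change was tested against 2-fold itself (glmTreat of edgeR), *bath-9*, *math-14* and *math-34* stayed called.

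**Figure D1:**
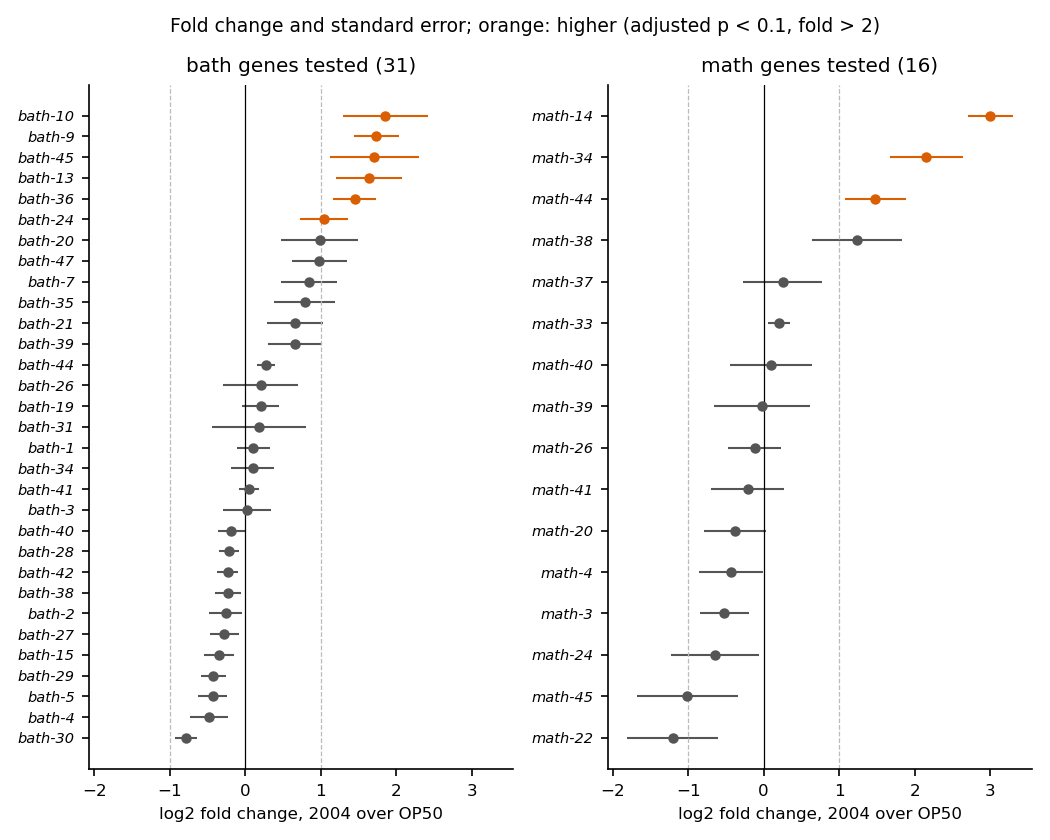
The log2 fold change of 2004 over OP50 (x axis) for each tested member (y axis), *bath* at left and *math* at right, with bars of 1 standard error and dashed lines at 2-fold. The 6 *bath* and 3 *math* genes called higher are orange, and no member was called lower.

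*bath-9* and *bath-10* are neighbours on chromosome II, at 3377089 to 3378834 and 3375079 to 3376721, on the plus strand. *bath-9* had 1.44 and 2.14 CPM in the OP50 samples and 6.75 and 5.55 CPM in the 2004 samples. It rose by a log2 fold change of 1.73 (SE 0.30, edgeR adjusted p = 0.00151), and the foods did not overlap. *bath-10* had 0.269 and 1.03 CPM on OP50 and 3.19 and 1.68 CPM on 2004, a log2 fold change of 1.86 (SE 0.56, edgeR adjusted p = 0.0245). The OP50 samples of *bath-10* lay far apart. Without OP50 replicate 2 its log2 fold change was 3.02, without OP50 replicate 1 it was 1.27, and it stayed called in both. *bath-9* overlaps the gene *Y49F6C.2* on the same strand, which had 0 counts in every sample.

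The other *bath* genes called higher lay apart from each other. *bath-36* on chromosome V (15187888 to 15189588) had 2.60 and 2.55 CPM on OP50 and 6.43 and 8.16 CPM on 2004, a log2 fold change of 1.45 (SE 0.28, edgeR adjusted p = 0.00312). Its OP50 samples were nearly equal, and both 2004 samples were above them. *bath-13* (chromosome II, 2520842 to 2522060) had 0.539 and 0.574 CPM on OP50 and 1.73 and 1.88 CPM on 2004, a log2 fold change of 1.64 (SE 0.44, edgeR adjusted p = 0.0143). The replicates of *bath-13* were close to each other in both foods. *bath-24* (chromosome II, 2044619 to 2045605) had 1.57 and 2.14 CPM on OP50 and 3.84 and 4.04 CPM on 2004. Its log2 fold change of 1.04 (SE 0.32, edgeR adjusted p = 0.0245) was the nearest to 2-fold of the called genes, and it dropped under 2-fold, to 0.92 without OP50 replicate 1 and 0.96 without 2004 replicate 2. *bath-45* (chromosome II, 13123020 to 13125189) had 0.539 and 0.238 CPM on OP50 and 0.971 and 1.66 CPM on 2004. It was the called *bath* gene with the highest adjusted p (log2 fold change 1.71, SE 0.59, edgeR adjusted p = 0.0414). The call of *bath-45* was lost without OP50 replicate 2 (1.16, adjusted p = 0.177) and without 2004 replicate 2 (1.21, adjusted p = 0.188), and without OP50 replicate 1 its log2 fold change was 2.51. None of these 6 genes has a substrate that can be named here with confidence.

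**Figure D2:**
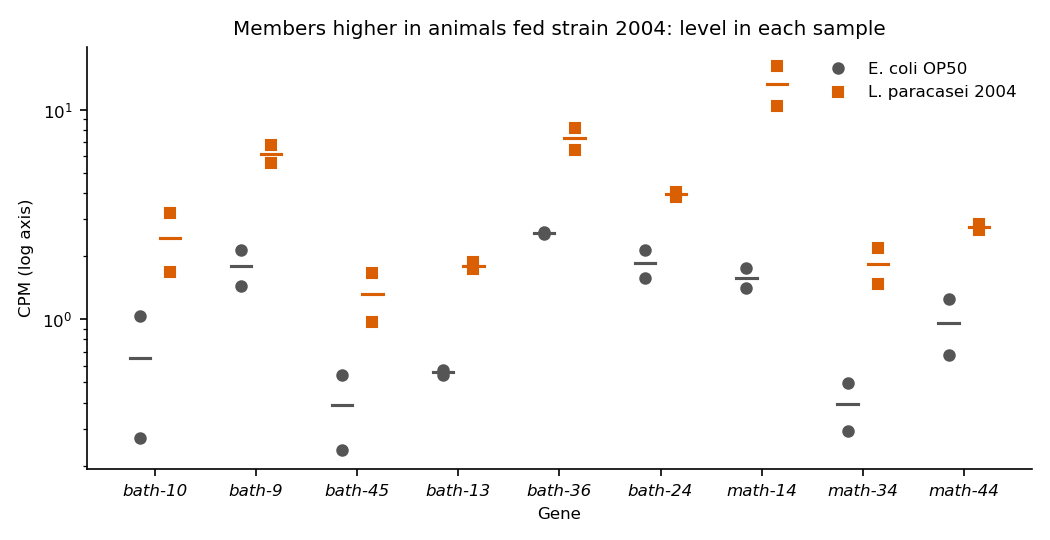
The level of the 9 members called higher in each of the 4 samples, in CPM on a log axis, with circles for OP50, squares for 2004 and a line at each mean. The 2 samples of each food do not overlap with those of the other in any of the 9 genes, which their selection as called genes favours. Among all tested genes, both 2004 samples exceeded both OP50 samples in 37.5%.

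The *bath* genes with the most RNA for their length were not called. By CPM per kilobase of exon, averaged over the 4 samples of both foods, these were *bath-40* at 163.9, *bath-42* at 116, *bath-41* at 97.6 and *bath-44* at 40.3, followed by *bath-30* at 38.1. On OP50 alone *bath-30* (47.7) stood above *bath-44* (35.7), and on 2004 it stood below (28.5 against 44.8). *bath-40* had 270.2 and 238 CPM on OP50 and 223 and 243 CPM on 2004, a log2 fold change of -0.18 (SE 0.17, edgeR adjusted p = 0.431), with overlapping foods. *bath-42* had 205 and 214 CPM on OP50 and 186 and 183 CPM on 2004, a log2 fold change of -0.23 (SE 0.14, edgeR adjusted p = 0.221). Both 2004 samples of *bath-42* were below both OP50 samples, by less than the test could separate. *bath-41* had 137 and 144 CPM on OP50 and 158 and 144 CPM on 2004 (log2 fold change 0.06, SE 0.13, edgeR adjusted p = 0.762). *bath-44* had 56.7 and 67.7 CPM on OP50 and 82.1 and 73.9 CPM on 2004. Its log2 fold change of 0.28 (SE 0.12) passed the adjusted p-value (0.0877, edgeR) at well under 2-fold, but not with DESeq2 (adjusted p = 0.121). *bath-40*, *bath-42* and *bath-41* together held 67.8% of the counts of all *bath* genes on OP50 and 66.6% on 2004.

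A further 5 *bath* genes passed the adjusted p-value without reaching 2-fold. With *bath-44* these were 6 of the 31 tested *bath* genes, beside 3348 of all 12505 tested genes. At any fold, 12 of 31 *bath* and 3 of 16 *math* genes passed it, beside 49.1% of all tested genes, a smaller share in both families. *bath-30* had 40.5 and 57.1 CPM on OP50 and 29.3 and 29.1 CPM on 2004, a log2 fold change of -0.78 (SE 0.15, edgeR adjusted p = 0.00241). Both 2004 samples were below both OP50 samples, and the 2004 replicates were nearly equal. *bath-29* (-0.42, adjusted p = 0.0708) and *bath-5* (-0.43, adjusted p = 0.0943) were lower in edgeR as well. *bath-7* (0.85, adjusted p = 0.0908) and *bath-47* (0.98, adjusted p = 0.0538) were higher, and *bath-47* was called with DESeq2, where it just passed 2-fold. *bath-29*, *bath-5* and *bath-7* did not pass with DESeq2 (adjusted p = 0.103, 0.128 and 0.127) or with edgeR scaled by library size alone (adjusted p = 0.220, 0.238 and 0.125), whereas *bath-30* and *bath-47* passed in both. Just outside the adjusted p-value lay *bath-35*, with 0.875 and 1.45 CPM on OP50 and 2.37 and 1.77 CPM on 2004 (log2 fold change 0.79, SE 0.40, edgeR adjusted p = 0.143).

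Among the *math* genes, *math-14* rose by far the most. It lies on chromosome II at 1869420 to 1870805 on the plus strand, and its counts were 78 and 71 on OP50 against 747 and 484 on 2004. In CPM these were 1.75 and 1.41 on OP50 and 16.1 and 10.4 on 2004, an 8.02-fold rise (log2 fold change 3.00, SE 0.29, edgeR adjusted p = 4.84e-05). Every 2004 value was several times every OP50 value, and the log2 fold change stayed between 2.73 and 3.27 when each sample was left out in turn. Nearly all counts fell on transcript b, with 77 and 70 on OP50 and 745 and 481 on 2004, so the rise did not rest on the division of reads between transcripts.

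*math-34* and *math-44* were the other *math* genes called. *math-34* (chromosome II, 1028972 to 1033665) had 0.292 and 0.495 CPM on OP50 and 2.18 and 1.47 CPM on 2004, a log2 fold change of 2.15 (SE 0.48, edgeR adjusted p = 0.00617). It passed the filter on low counts through the 2004 samples only, the 1 tested member of which this was true. Its transcript b went from 6 and 8 counts on OP50 to 84 and 57 on 2004, while transcript a had 7 and 17 counts on OP50 and 17 and 11 on 2004. *math-44* (chromosome II, 1989310 to 1990535) had 0.673 and 1.25 CPM on OP50 and 2.65 and 2.85 CPM on 2004, a log2 fold change of 1.48 (SE 0.40, edgeR adjusted p = 0.0152). The foods did not overlap in either gene. Just outside the thresholds lay *math-38*, with 0.224 and 1.03 CPM on OP50 and 1.36 and 1.64 CPM on 2004 (log2 fold change 1.23, SE 0.60, edgeR adjusted p = 0.122). OP50 replicate 2 of *math-38* stood near the 2004 samples, and without it *math-38* was called (2.60, adjusted p = 0.00862). Averaged over both foods, *math-26* was the fourth *math* gene by CPM per kilobase (1.74, after *math-33*, *math-14* at 6.93 and *math-44* at 2.05), while on OP50 alone it stood second (1.77). It had 4.22 and 4.87 CPM on OP50 and 6.15 and 2.63 CPM on 2004 (log2 fold change -0.12, SE 0.35, edgeR adjusted p = 0.808). Its 2004 replicates enclosed the OP50 samples, its sign turned (0.34) without 2004 replicate 2, and it overlaps *math-3* on the same strand. The 12 tested *math* genes other than *math-38* that were not called lay between -1.20 and 0.25, and the standard errors of the family were wide, with a median of 0.48 beside 0.28 for *bath* and 0.22 for all tested genes.

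*math-33*, the USP7 homolog, had the most RNA for its length of all *math* genes, with 54.9 CPM per kilobase on OP50 and 65.5 on 2004. It lies on chromosome V, the one member of its family there. Its levels were 219 and 245 CPM on OP50 and 287 and 266 CPM on 2004, a log2 fold change of 0.20 (SE 0.15, edgeR adjusted p = 0.296). Both 2004 samples were above both OP50 samples, by less than the test could separate. *daf-16*, whose product MATH-33 deubiquitylates, had 93.2 and 82.7 CPM on OP50 and 135 and 138 CPM on 2004, a log2 fold change of 0.58 (SE 0.15, edgeR adjusted p = 0.0126) that passed the adjusted p-value without reaching 2-fold. *rle-1*, an E3 ligase known to ubiquitylate DAF-16, had 175 and 149 CPM on OP50 and 218 and 216 CPM on 2004 (log2 fold change 0.36, SE 0.17, edgeR adjusted p = 0.107). *rle-1* passed the adjusted p-value, under 2-fold, with DESeq2 (adjusted p = 0.0856) and with edgeR scaled by library size alone (adjusted p = 0.0284). It did not pass with limma-voom (adjusted p = 0.108). RNA levels say nothing of the amount of ubiquitin on DAF-16, which was not measured.

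The counts of *math-33* were divided among 16 listed transcripts, and the division differed between replicates. Transcripts f, h, n and p together held 19.1% and 8.91% of the counts of the gene on OP50, and 4.90% and 21.3% on 2004. The OP50 shares lay between the 2004 shares, and 5 of the 16 transcripts differed by more than 2-fold between replicates of 1 food, so no transcript was compared between foods. *math-33* overlaps *scb-1* on the opposite strand, and no source used here says that reads were counted by strand.

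The summed level of a family depended on its most abundant members. All *math* genes together had 237 and 275 CPM on OP50 and 333 and 295 CPM on 2004, a ratio of 1.23. *math-33* made up 90.7% of that sum on OP50 and 88.1% on 2004. Without *math-33* the sums were 18.3 and 29.6 CPM on OP50 and 45.5 and 29.2 CPM on 2004, a ratio of 1.56 with overlapping foods. When *math-14* was left out as well, the ratio was 1.08. All *bath* genes together had 863 and 917 CPM on OP50 and 867 and 840 CPM on 2004, a ratio of 0.959 with overlapping foods. The 6 *bath* genes called higher contributed 6.96 and 8.67 CPM to the OP50 sums and 22.91 and 22.96 CPM to the 2004 sums. They were a small part of a sum that otherwise overlapped between the foods.

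Calls fell among members with few reads. None of the 13 members with a mean of at least 10 CPM was called by edgeR, beside 3.77% of all such genes called higher and 7.27% called lower. At an unadjusted p under 0.05 in edgeR, 4 of these 13 passed, beside 51.6% of all such genes, with *bath-44* upwards and *bath-30*, *bath-29* and *bath-5* downwards. DESeq2 and limma-voom called 0 of them. Of the 34 tested members under 10 CPM, 9 were called higher (26.5%) and 0 lower, beside 12.05% higher and 23.8% lower of all tested genes under 10 CPM. The 9 include *math-34*, which passed the filter through its 2004 samples only. The 13 had a median log2 fold change of -0.23 and the 34 one of 0.23, whereas in all tested genes the order was the opposite, 0.09 at or above 10 CPM and -0.34 under it.

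**Figure D3:**
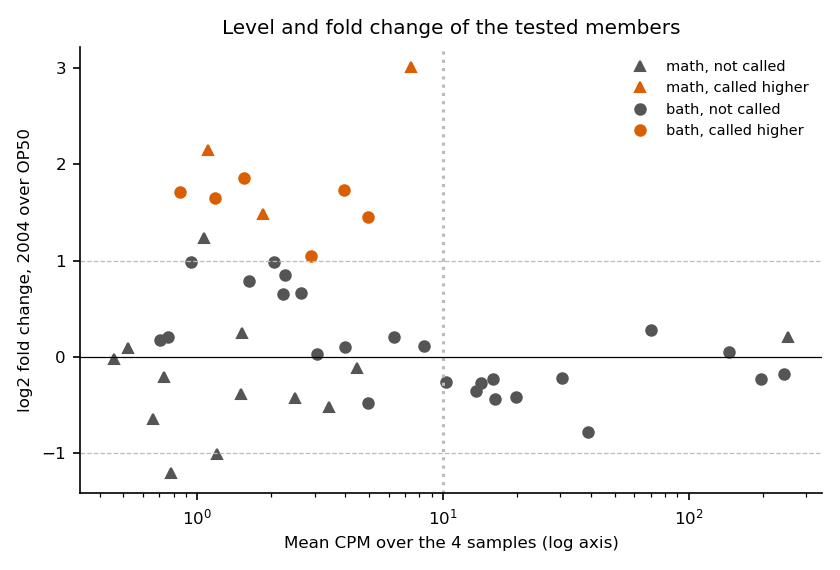
Log2 fold change of 2004 over OP50 (y axis) against the mean CPM over the 4 samples (x axis, log scale) of the tested *math* (triangles) and *bath* (circles) genes. The 9 orange members called higher all lie under 10 CPM (dotted line), and the 13 members to its right lie within 2-fold (dashed lines).

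Neighbouring members differed in their changes. On chromosome II, 58 of the 73 members lay in the left 4 Mb, where 7 of 35 tested members were called higher (20.0%), against 2 of 12 elsewhere (16.7%). Of the other genes tested in the same 4 Mb, 22.7% were called higher, and 15.6% once genes with an fbx symbol were set aside, so the share of members called there was near that of their surroundings. When members less than 20 kb apart were joined, 16 runs resulted. The longest by members, 18 genes within 56.4 kb (1866381 to 1922765), held only 3 other coding genes. It contains *math-14*, the member with the largest rise, and 5 genes with 0 counts in every sample. Only 6 of its 18 genes could be tested, and the other 5 of those were not called. A run of 12 members (1989310 to 2046656) held *math-44* and *bath-24* as its 2 called genes of 9 tested. A run of 7 *bath* genes (3343731 to 3378834) was split. *bath-28* (-0.22), *bath-30* (-0.78), *bath-29* (-0.42) and *bath-27* (-0.27) had negative log2 fold changes, of which that of *bath-30* passed the adjusted p-value in edgeR and DESeq2 and that of *bath-29* in edgeR alone of the pair. *bath-10* (1.86) and *bath-9* (1.73) at the other end of the run were called higher.

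**Figure D4:**
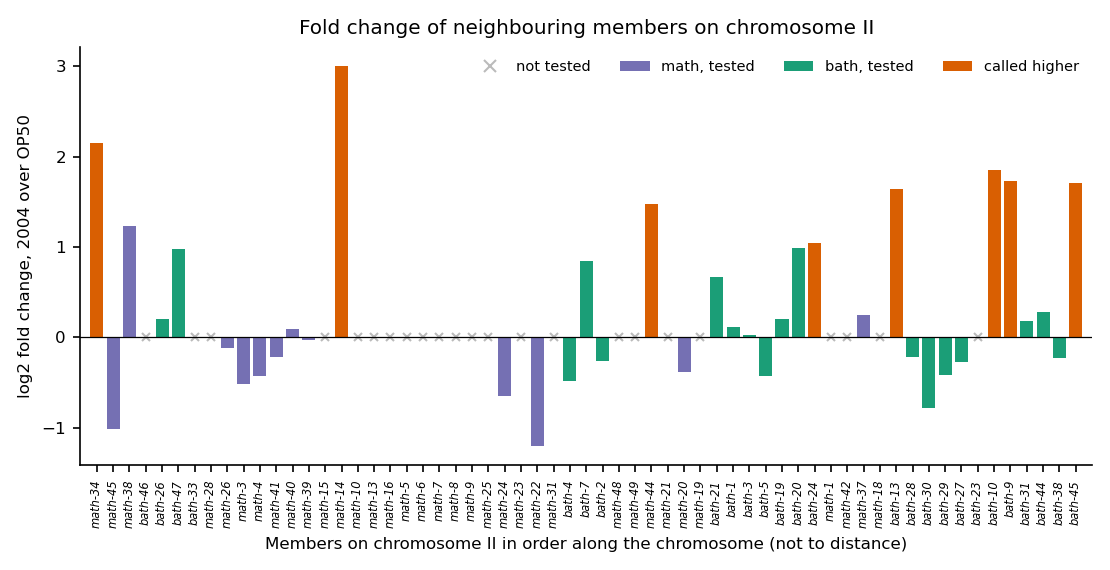
Log2 fold change of 2004 over OP50 (y axis) of the members on chromosome II in their order along it (x axis, not to distance), with orange bars for members called higher and crosses for members too low to test. *math-14* stands at 3.00 among untested neighbours, and *bath-9* and *bath-10* stand beside 4 *bath* genes under 0.

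Many *math* genes had almost no RNA in these animals. Of the 37, 21 were too low to test, and 7 of those had 0 counts in all 4 samples, where a count of 0 allows up to 0.0673 CPM. The other 14 reached at most 28 counts in a sample. Only 5 of the 36 *bath* genes were too low, among them *bath-25* and *bath-46* at 0 in all samples. *math-49* was at 0 on OP50 in both replicates and at 14 and 19 counts on 2004, at least 5.62-fold higher against a floor of 3 counts per library. It was called only when no filter on low counts was applied (edgeR adjusted p = 0.0423). No other member was at 0 in both samples of 1 food and at 10 or more counts in both of the other. Near that limit, and named after their values were seen, *math-28* had 0 and 0 counts on OP50 and 11 and 9 on 2004, and *math-8* had 7 and 11 counts on OP50 and 0 and 0 on 2004.

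Beside the adaptors, the ligase core did not reach 2-fold. Of 19 genes of the CUL-3 machinery, all tested, edgeR called 0 higher and 0 lower, with a median log2 fold change of 0.09. All 19 had a mean above 10 CPM, where few genes were called at all (3.77% higher and 7.27% lower), so 0 calls of 19 was near that background. At an unadjusted p under 0.05 in edgeR, 5 were higher and 2 lower, and DESeq2 and limma-voom called 0. Of all 6795 tested genes with a mean of at least 10 CPM, 2076 were higher and 1427 lower at that p, 51.6% in either direction. *cul-3*, the scaffold of the ligase, had 333 and 291 CPM on OP50 and 315 and 316 CPM on 2004 (log2 fold change -0.04, SE 0.18, edgeR adjusted p = 0.869), a value within its error that took the opposite sign (0.02) when scaled by library size alone. *mel-26* had 124 and 177 CPM on OP50 and 154 and 125 CPM on 2004 (log2 fold change -0.15, SE 0.16, edgeR adjusted p = 0.451), with overlapping foods. Its target *mei-1* had 0.13, and *mei-2*, which encodes the other katanin subunit, had 0.15. The 5 that passed the adjusted p-value upwards were *kel-8*, a kelch-type adaptor (0.60, adjusted p = 0.0315), *cand-1*, which exchanges adaptors on cullins (0.53, adjusted p = 0.0148), *ubc-12*, the NEDD8-conjugating enzyme (0.51, adjusted p = 0.0625), *csn-1* of the COP9 signalosome (0.47, adjusted p = 0.0295) and the RING subunit gene *rbx-2* (0.37, adjusted p = 0.0738). The other RING subunit gene, *rbx-1*, had 277 and 253 CPM on OP50 and 162 and 197 CPM on 2004, a log2 fold change of -0.61 (SE 0.18, edgeR adjusted p = 0.0225), and *rfl-1*, part of the NEDD8-activating enzyme, had -0.52 (adjusted p = 0.0146). Of 5 other cullin genes, 0 were called by edgeR, DESeq2 or limma-voom. Past the adjusted p-value were *cul-1* (0.58) and *cul-5* (0.50) upwards and *cul-6* (-0.77) downwards. These 3 of 5 stand beside 49.1% of all tested genes that passed it at any fold. Their unadjusted p was under 0.05 too, which goes with an adjusted p under 0.1 in these data and is no separate support. *cul-6* did not pass with DESeq2 (adjusted p = 0.135), and *rbx-2* did not pass in edgeR scaled by library size alone (adjusted p = 0.116).

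Other adaptor families gave different counts in the same libraries. The F-box genes encode adaptors of CUL-1 ligases, and the *skr* genes encode their linkers. Of 69 tested *fbxb* genes, 53 were called higher and 0 lower (median 1.64), beside 7.55% higher and 14.8% lower of all tested genes. The median level of these *fbxb* genes was 1.04 CPM, near the filter of 0.5 CPM. How many of them passed that filter through their 2004 samples only was not counted, and any that did raise the share. Of 36 tested *fbxc* entries, 16 were higher and 1 lower (median 0.86). The symbols *fbxc-4*, *fbxc-5* and *fbxc-8* each stood for more than 1 entry, none of them called. Of 75 tested *fbxa* genes, 3 were higher and 18 lower (median -0.33). The 12 tested *btb* genes, which carry the BTB domain without the MATH symbol, had 2 higher and 1 lower, and of 18 *skr* genes, 1 was higher. The share of *bath* and *math* genes called higher was near that of *btb* (16.7%). It lay under that of *fbxb* and *fbxc* and above that of *fbxa* and *skr*. Differences between families were not tested. In a short list for the intracellular pathogen response (*pals-5*, *pals-14*, *cul-6*, *skr-3*, *skr-4* and *skr-5*), 3 of 6 genes could be tested, and 0 were called by edgeR, DESeq2 or limma-voom (median -0.27), with 1 at an unadjusted p under 0.05 in edgeR.

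**Figure D5:**
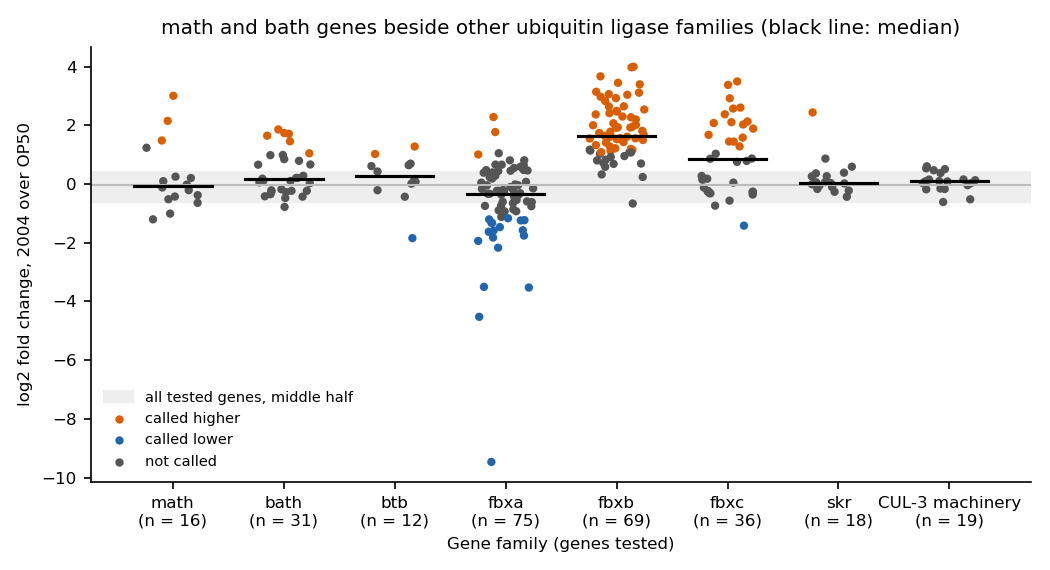
Log2 fold change of 2004 over OP50 (y axis) of each tested gene in 8 gene groups (x axis), with a black line at each median, a grey line at the median of all tested genes and a grey band from their lower to their upper quartile. The *math* and *bath* medians lie near 0 with a few orange genes above 1, whereas the *fbxb* median is 1.64.

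Markers of tissues moved between the foods as well. Over all tested genes, 7.55% were called higher and 14.8% lower. Of 6 body muscle markers, 5 were called lower (median -1.61), and their summed level was 1561 and 1439 CPM on OP50 and 570 and 510.1 CPM on 2004. Of 8 neuron markers, 4 were called lower (median -0.89; sums 310 and 320 CPM on OP50, 244 and 251 CPM on 2004). Of the 11 transcription factors of the zygotic embryo, 9 could be tested and 3 were called higher, with a median of 0.67. The list summed to 282 and 266 CPM on OP50 and 322 and 306 CPM on 2004. Most of that came from *pal-1* (mean 157 CPM, log2 fold change -0.18) and *lin-26* (mean 103 CPM, 0.40), which were not called. The 3 called genes had means from 0.396 to 4.26 CPM. The lowest of them, *tbx-38*, had 0.202 and 0 CPM on OP50 and 0.755 and 0.626 CPM on 2004. It passed the filter on low counts through its 2004 samples only, which raises the share called in this list. Of the 12 germline and oocyte markers, edgeR, DESeq2 and limma-voom called 0 (median 0.27), with 4 at an unadjusted p under 0.05 in edgeR. Of the 9 intestine markers 1 was higher and 1 lower (median 0.05). Only 1 of 8 sperm markers was tested, *spe-11*, which was called lower (-4.03). It had 66 and 86 counts on OP50 and 0 and 9 counts on 2004. It passed the filter on low counts through its OP50 samples only, so this 1 gene cannot show how the sperm list changed. Of 5 hypodermis markers, 3 were tested, with 1 higher. In which cells the *math* and *bath* genes were expressed was not measured, and the part of these tissue markers in the 9 rises was not tested.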

How the data were processed

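Whole-animal RNA-seq of 4 samples was grouped by the food in the labels, 2 samples each. The methods of the study describe NGM plates and the labels S basal medium. According to the submitters' processing notes, reads were processed with FastQC 0.11.8, Trim Galore 0.6.4, HISAT2 2.1.0, SAMtools 1.7 and StringTie 2.1.1 on WBcel235. The annotation release, read length and strandedness are not given in the sources used here. The authors deposited estimated counts per transcript as whole numbers, without normalization, so no rounding was needed. Of 57834 transcripts, 57518 (99.5%) matched a gene of Ensembl release 115 by sequence name, and 11 fitted more than 1 gene. Counts were summed per gene. Near-identical members of a cluster, and overlapping or antisense genes, may share reads.

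edgeR 4.0.16 in R 4.3.3 fitted all 12505 genes that passed the filter (TMM, no covariate). Standard errors come from its F statistic. The main edgeR step, and not the other steps, was tested on simulated counts. The alternatives were RLE and library-size scaling, 3 other filters, DESeq2 1.42.0, limma-voom (limma 3.58.1), glmTreat, an adjusted p under 0.05, a replicate block and each sample left out. A crossed pairing, and TMM factors for summed CPM, were added after seeing the data. The replicates of a food differed by more than random sampling of reads gives, with a chi-square over its degrees of freedom of 58.6 on OP50 and 27.0 on 2004. Because the counts are estimates, these values cannot settle how the replicates were prepared.

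The members and lists were chosen with earlier results of these data known. Named with every sample's value were, per family, called members with a mean of at least 1 CPM, the 4 with the highest counts per kilobase, members at 0 on 1 food and at 10 counts or more in both samples of the other, and those just inside and outside the thresholds, plus *math-33*, *daf-16*, *rle-1*, *mel-26* and *cul-3*. Other genes were named after their values were seen. Sequences and protein domains were not used here.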

Additional observations from a re-analysis of the deposited data

How the results depend on the processing

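All 9 calls were shared by RLE and library-size scaling, the 3 other filters, an adjusted p under 0.05, DESeq2 and limma-voom. The counts of *bath* genes lower and of CUL-3 machinery genes higher or lower were 0 in every alternative run. With glmTreat, 1 *bath* and 2 *math* genes were called higher. The count of lower *math* genes was 1 with 10 counts in every sample, with limma-voom and with the crossed pairing, in each case *math-22*. Leaving out each sample in turn gave 3 to 5 *math* genes higher, 0 to 2 *math* genes lower and 5 to 8 *bath* genes higher. The median log2 fold change then ran from -0.42 to 0.29 for *math* and from 0.037 to 0.29 for *bath*, and without a filter the *math* median was 0.24. These fits pool the spread over both foods, so the lone sample is assumed to vary like the others. The same fits turned the sign of *math-26* (-0.77 to 0.34), *bath-40* (-0.34 to 0.013), *mel-26* (-0.30 to 0.025) and *cul-3* (-0.21 to 0.16), none of which was called, and library size alone turned *cul-3* (0.017). The summed *math* ratio was 1.56 without *math-33*, and the summed *bath* ratio was 0.926 with TMM factors. The cause of these differences was not tested. Scaling moved the median of all genes between -0.03 (TMM) and 0.02 (library size).

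The samples shared only a replicate number. Deviations of same-numbered samples from their group means correlated at -0.11 over 12505 genes, so the numbers were not taken as pairs. With the replicate block, 4 *math* and 7 *bath* genes were called higher and 0 lower, all 9 among them. With the crossed pairing, 3 *math* and 6 *bath* genes were higher.

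With 2 samples per food, the coefficient of variation between replicates was 17.7%. Under the filter of 0.5 CPM in 2 samples, 21 *math* and 5 *bath* genes were not tested. Without a filter, 30 *math* genes were tested and 4 were called higher.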
